A study of Mus musculus with 3 samples.

Results

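Interferon response genes are the set of 41 genes described here, out of 23523 genes with a value in RNA-seq of the mouse epididymis. They were chosen by symbol, as well-known targets and regulators of interferon signalling, and all 41 had a value. No measured value entered the choice by rule, but it was made with earlier results of these data known. Whole epididymis, the duct in which sperm mature, was taken from adult male ICR mice, an outbred strain, in 3 groups. Sham mice (3 animals) had the same surgery without loss of the testes. Cas+CO mice (5 animals) had both testes removed and received corn oil, the vehicle, from 14 days after surgery. Cas+T mice (5 animals) had both testes removed and, from the same day, received testosterone propionate in corn oil under the skin at 5 mg/kg for 10 days. The sources used here give no corn oil for Sham, and castration removes every product of the testis, sperm and testicular fluid included. The design asks which epididymal transcripts depend on the testis and which of them testosterone brings back. Each group had 1 library, so there are no replicates. Every ratio below compares 2 libraries, not 2 conditions, and has no test and no replicate error. Whether a library pools the mice of its group is not stated.

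Interferons are secreted proteins that cells release on sensing viral or misplaced nucleic acids. Type I interferons signal through the Ifnar1 and Ifnar2 receptor chains to the kinases Jak1 and Tyk2 and to a transcription factor complex that holds Stat2 and Irf9 and binds the interferon-stimulated response element in promoters. Interferon-gamma acts through its own receptor on gamma-activated sites, with Irf1 and the guanylate-binding GTPases among the classic targets. Many of the induced proteins block viral RNA, viral entry or the vacuoles of intracellular microbes, and immune cells as well as epithelium carry them.

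The deposited values read as log2(TPM + 1), where TPM is a transcript level corrected for gene length that sums to 1000000 in each library. TPM keeps no sequencing depth, so no counting interval is given. Log2 ratios are differences on that scale, with a pseudocount of 1 TPM, and understate the change of low genes. Genes reaching 1 TPM in either library were compared, and a gene counts as higher or lower at 2-fold or more. The median gene itself was displaced by 0.76 in Cas+CO over Sham, -0.46 in Cas+T over Cas+CO and by 0.30 in Cas+T over Sham on the log2 scale. Counts are therefore also given after the libraries were scaled to the median over 12677 genes. The 3 libraries carried the tissue's defining transcripts, with the secretory marker Crisp1 at 44116 TPM in Sham, 6654 TPM in Cas+CO and 32799 TPM in Cas+T. The 14 epithelial markers as a list summed to 75504, 9289 and 58279 TPM in that order, and most of each sum was Crisp1. In Cas+CO over Sham 8 of the 14 had a log2 ratio above 0 and 6 below. Their median was 0.48, under the 0.76 of all genes. Epcam was at 289, 476 and 386 TPM and Krt18 at 344.5, 471 and 400 TPM.

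The promoters of the 4 members with the largest ratios in Cas+CO over Sham among those holding the core of the response element come first, because the letters shared by these genes are the part of the sequence that interferon signalling is known to read. The core was searched as GAAA-NN-GAAA on both strands, where N is any base. The sequences are from RefSeq on GRCm38.p6, 250 bases before the RefSeq start on the plus strand, and capitals mark the matches, which here all lie on the opposite strand and read TTTC-NN-TTTC. The windows are chr19:34583279-34583528 (Ifit3), chr19:34607707-34607956 (Ifit3b), chr3:142620413-142620662 (Gbp2) and chr3:142559794-142560043 (Gbp3). A further stretch, from Isg15, was chosen after its values were seen because its matches overlap: chr4:156200865-156200906 on the minus strand, with 10 bases on each side.
Ifit3: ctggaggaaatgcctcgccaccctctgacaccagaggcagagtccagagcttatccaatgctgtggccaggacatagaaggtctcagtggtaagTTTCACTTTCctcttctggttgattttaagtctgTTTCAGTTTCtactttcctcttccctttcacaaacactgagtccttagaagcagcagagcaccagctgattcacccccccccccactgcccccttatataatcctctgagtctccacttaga
Ifit3b: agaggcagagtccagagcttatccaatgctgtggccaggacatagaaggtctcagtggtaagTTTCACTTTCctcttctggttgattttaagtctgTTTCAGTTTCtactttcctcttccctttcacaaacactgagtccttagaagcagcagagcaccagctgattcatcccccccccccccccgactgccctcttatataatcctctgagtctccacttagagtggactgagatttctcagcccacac
Gbp2: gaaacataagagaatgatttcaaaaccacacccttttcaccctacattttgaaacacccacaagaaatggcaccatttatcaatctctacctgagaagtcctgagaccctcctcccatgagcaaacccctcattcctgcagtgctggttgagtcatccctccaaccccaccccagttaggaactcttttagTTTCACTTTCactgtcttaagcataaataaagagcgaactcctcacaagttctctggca
Gbp3: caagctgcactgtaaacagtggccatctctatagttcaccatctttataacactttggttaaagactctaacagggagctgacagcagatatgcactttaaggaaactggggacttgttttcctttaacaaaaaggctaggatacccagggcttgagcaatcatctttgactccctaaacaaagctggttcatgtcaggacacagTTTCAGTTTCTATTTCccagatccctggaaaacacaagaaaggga
Isg15: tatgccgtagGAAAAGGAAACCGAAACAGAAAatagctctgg
Ifit3 and Ifit3b share an unbroken run of 169 identical bases, from -218 to -50 in Ifit3 and from -250 to -82 in Ifit3b, counted back from each start. Both matches lie in that run, 34 bases apart from first base to first base in each gene. Gbp2 holds 1 match, from -59 to -50. Positions are counted from the RefSeq start, and for Ifit3, Ifit3b, Gbp2 and Gbp3 the GENCODE M21 gene starts at another base. For Gbp2 it starts earlier, at chr3:142620602, so the match lies inside the gene as GENCODE gives it. In Gbp3, 2 matches overlap between -45 and -30, and in Isg15, 3 overlap between -78 and -57.

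Of the 41 members, 32 had a promoter in the RefSeq table, spanning 250 bases before to 50 after the start. The core was found in 19 of these 32 (59.4%), against 1079 of 27025 genes with a promoter (3.99%) and 3.63% of the genes that were also compared in Cas+CO over Sham. Over single promoters the share was 19 of 39 (48.7%) for the members and 3.44% of 32851 for all genes. There were 29 matches, 22 of them within 160 bases before the start. The 9 members with no promoter in the table are Ifi27, Mx1, Mx2, Oas2, Usp18, Dhx58, Rtp4, Zbp1 and Parp14. The palindrome TTC-NNN-GAA, a form of the gamma-activated site added to the search after the data were seen, was found in 11 of the 32 (34.4%), against 9.55% of genes. It overlapped a match of the other pattern in Bst2 and Ifitm3, and 6 members held both patterns. Neither pattern was found in Ifi44, Ifi47, Ifitm1, Irf7, Irf9, Oasl1, Oasl2 or Xaf1. A match is a description of letters in this window, not a binding site, and a window without these letters says nothing about the factor. Because the members were chosen as well-known interferon targets, a high share can follow from that choice and is no result of these libraries. Ifit3 and Ifit3b count as separate genes although their matches lie in the same shared run of 169 bases.

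**Figure D1:**
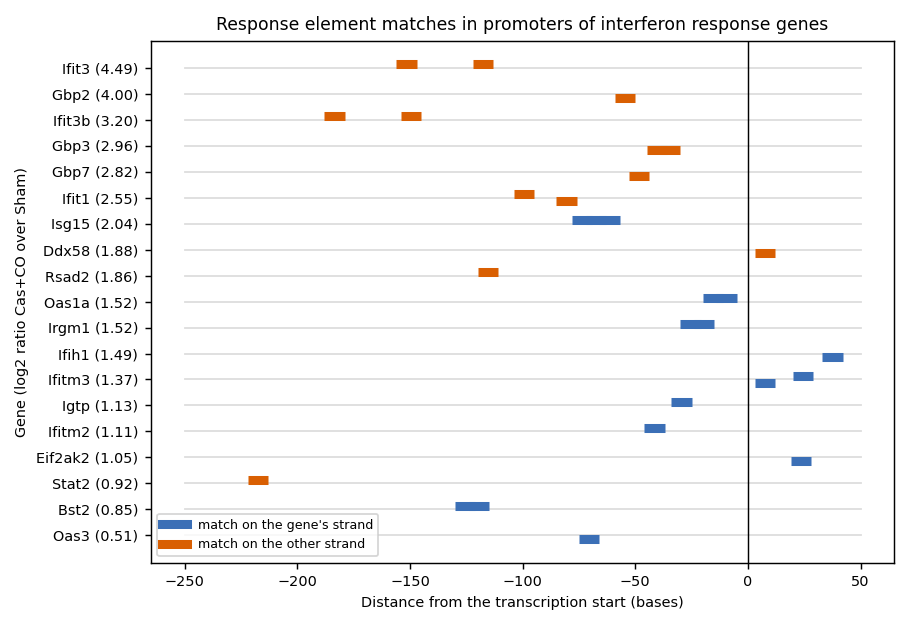
Positions of the response element core in the promoters of the 19 members that hold it, in bases from the transcription start (x axis), 1 line a gene, ordered by the log2 ratio of Cas+CO over Sham given beside each name; blue bars are matches on the strand of the gene and orange bars matches on the other strand. Of the 29 matches, which merge where they overlap, 22 lie within 160 bases before the start. The ratio beside Oas3, under 1 TPM in both libraries, was not compared.

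The members were highest in the castrated, vehicle-treated library: 40 of 41 had their top TPM in Cas+CO, and the other, Isg20, had its lowest there. Cas+T lay strictly between Sham and Cas+CO for 34 of the 41, Isg20 included, and was above Sham for 33, below it for 7 (Ifitm2, Ifitm3, Irf8, Dhx58, Bst2, Oas2 and Isg20) and equal to it for Mx1. The median member stood at 1.26 TPM in Sham, 18.8 TPM in Cas+CO and 2.79 TPM in Cas+T. Over all genes the medians were 2.27, 5.03 and 2.83 TPM in that order, with 13701, 15484 and 14029 of 23523 genes at 1 TPM or more. Members at 10 TPM or more numbered 9 in the Sham library, 27 in Cas+CO and 13 in Cas+T, and members under 1 TPM numbered 13, 2 and 8. The summed level was 893 TPM in Sham, 1263 TPM in Cas+CO and 744 TPM in Cas+T. Most of the Sham and Cas+T sums were Isg20 alone. Without it the other 40 summed to 317, 1244 and 366 TPM.

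**Figure D2:**
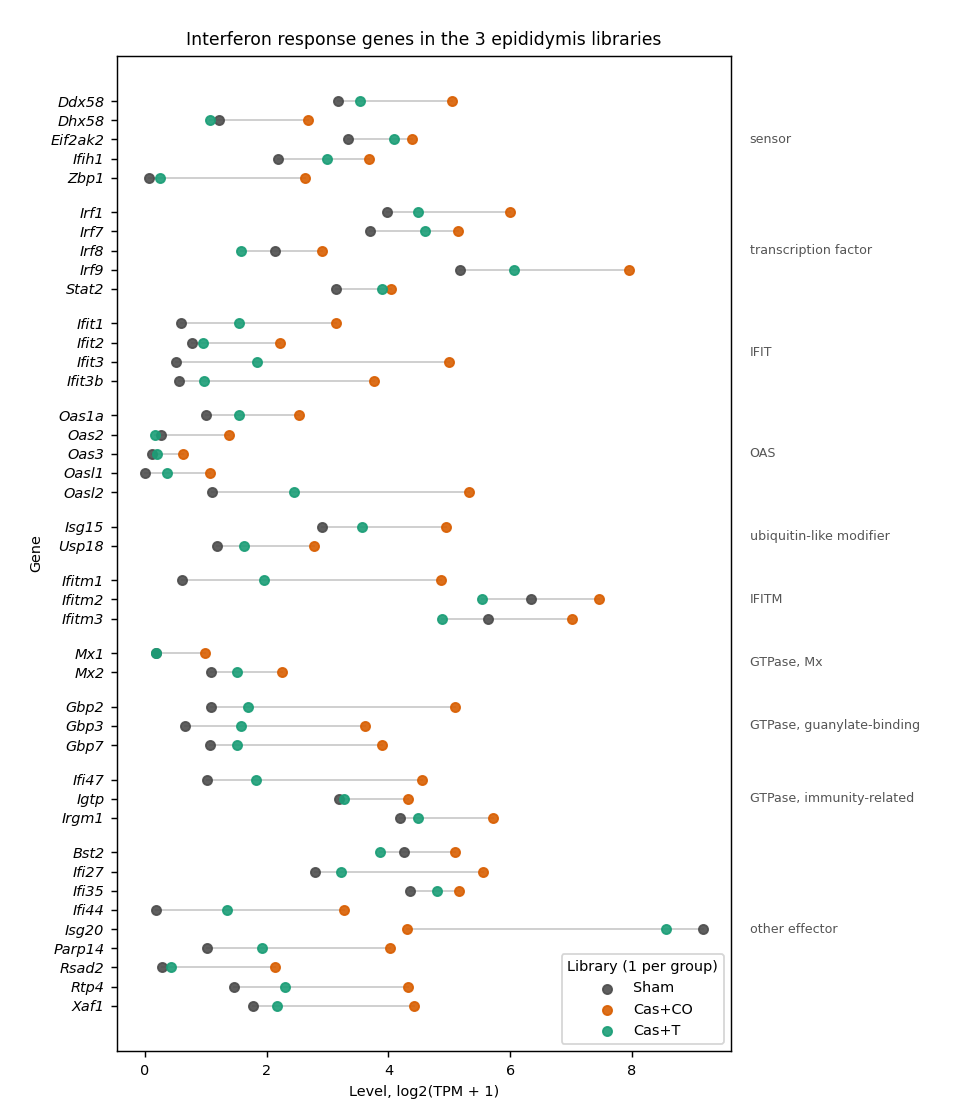
TPM of the 41 members in Sham (grey), Cas+CO (orange) and Cas+T (green) as log2(TPM + 1) on the x axis, grouped by role, 1 point per library. The Cas+CO point is the rightmost for every gene but Isg20, which is at 576 TPM in Sham and 18.8 TPM in Cas+CO.

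In Cas+CO over Sham, 39 members were compared and 34 were at least 2-fold higher, where 37.6% of the 16181 genes compared were. A single member, Isg20, was at least 2-fold lower, where 6.48% of genes were. Of the compared members, 11 passed the 1 TPM limit only through Cas+CO and so had to be higher there. Among the 28 members at 1 TPM or more in both libraries, 23 were higher and 1 was lower, where 33.5% and 4.31% of 13004 such genes were. The member median was 1.86 on the log2 scale, 1.10 above the median of all genes. After median scaling, 20 members were higher, where 13.0% of genes were, and 1 was lower, where 11.7% were. Among the 28 at 1 TPM or more in both libraries, 12 were then higher, where 1196 of the 13004 genes were. The 4 members under 2-fold were Ifi35 at 0.81, Bst2 at 0.85, Stat2 at 0.92 and Irf8 at 0.77. Just past the limit stood Eif2ak2 at 1.05 and Oasl1 at 1.08.

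In Cas+T over Cas+CO, 30 of the 39 members compared were at least 2-fold lower, where 23.4% of 16164 genes were. Isg20 alone was higher, where 6.9% of genes were. Of the compared members, 6 passed the 1 TPM limit only through Cas+CO, and among the 33 at 1 TPM or more in both libraries 25 were lower, where 17.8% of such genes were. The member median was -1.59, which is 1.13 below that of all genes. After median scaling, 22 were lower, where 11.9% of genes were, and Isg20 was still higher, where 9.39% were. This comparison and the one before it share the Cas+CO library, so they are not independent of each other. In Cas+T over Sham, 33 members were compared and 4 were at least 2-fold higher, where 5.2% of 14629 genes were: Ifit3, Oasl2, Ifitm1 and Ifi44. Ifit3, Ifitm1 and Ifi44 passed the 1 TPM limit only through Cas+T, so among the 28 members at 1 TPM or more in both libraries Oasl2 alone was higher, where 3.85% of such genes were. None was at least 2-fold lower, where 2.75% were. After median scaling, 3 of the 4 (Ifit3, Oasl2 and Ifitm1) were still higher, where 2.11% of genes were, and Ifitm2 and Ifitm3 were lower, where 3.99% were. The member median was 0.55, which is 0.25 above that of all genes.

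**Figure D3:**
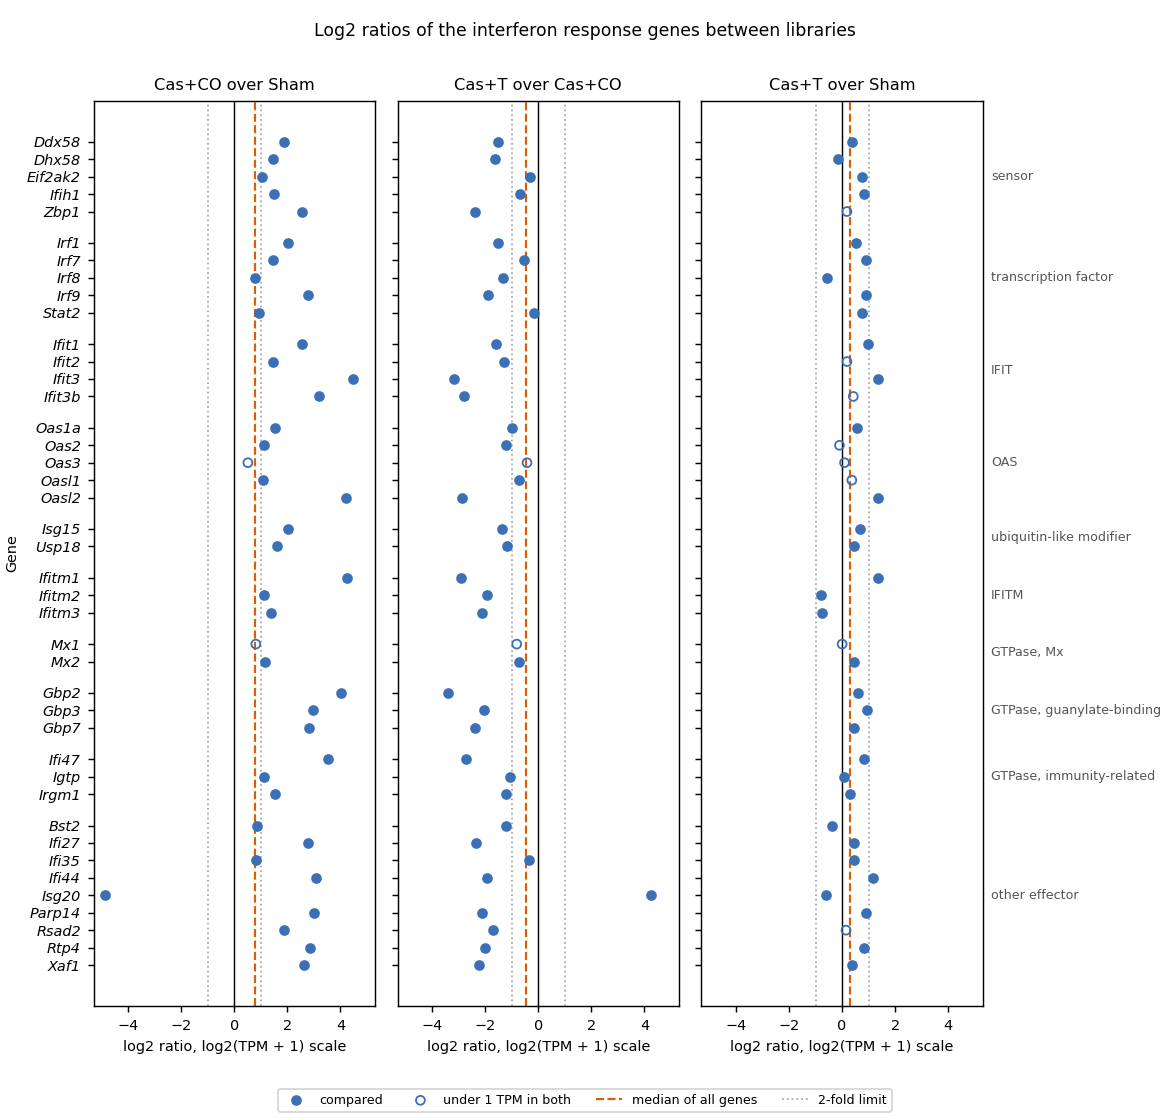
Log2 ratios of the members between libraries, grouped by role, 1 panel per comparison, with the median of all genes as a dashed line and the 2-fold limits dotted; open circles are members under 1 TPM in both libraries, which were not compared. In Cas+CO over Sham the values run from -4.87 (Isg20) to 4.49 (Ifit3), and in Cas+T over Cas+CO from -3.40 (Gbp2) to 4.26 (Isg20).

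As deposited, the sensors of foreign or misplaced nucleic acid were all highest in Cas+CO. Ddx58, the RIG-I helicase that detects viral RNA, was at 8.01 TPM in Sham, 32.1 TPM in Cas+CO and 10.6 TPM in Cas+T. On the log2 scale Cas+CO exceeded Sham by 1.88, and Cas+T over Cas+CO stood at -1.51. Ifih1, a related helicase for long double-stranded RNA, was at 3.54, 11.8 and 6.97 TPM. For Ifih1 the Cas+T value was nearer the middle, with ratios of 1.49 and -0.68. Dhx58, a helicase that tunes the other two, was at 1.32, 5.41 and 1.09 TPM. Zbp1, which binds Z-form nucleic acid and can start cell death, was at 0.05 TPM in Sham, 5.16 TPM in Cas+CO and 0.19 TPM in Cas+T. Zbp1 thus reached 1 TPM in Cas+CO alone. Eif2ak2, the kinase PKR that halts translation on double-stranded RNA, was at 9.14, 19.98 and 15.98 TPM, so Cas+T stayed close to Cas+CO (-0.31).

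The transcription factors of the response differed in size. Irf9, the DNA-binding subunit of the type I interferon complex, was the most abundant member in Cas+CO, at 246 TPM, against 35.3 TPM in Sham and 66.0 TPM in Cas+T. Its ratios were 2.76 and -1.88, and it stayed past 2-fold after median scaling in Cas+CO over Sham (1.97). Stat2, its partner, was at 7.77, 15.6 and 13.9 TPM, with ratios of 0.92 and -0.16. The subunits of the same complex therefore did not differ to the same extent between these libraries. Irf1, an early target of interferon-gamma, was at 14.8, 63.2 and 21.4 TPM, with ratios of 2.02 and -1.52. Irf7, which amplifies production of type I interferon, was at 11.96, 34.3 and 23.4 TPM, with ratios of 1.45 and -0.53. Irf8, best known from myeloid and B cells, was at 3.42, 6.55 and 1.98 TPM, so its lowest value was in Cas+T.

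The 4 IFIT genes, whose proteins bind foreign RNA and hinder its translation, lie together on chromosome 19 and all stood under 1 TPM in Sham. Ifit3 (chr19:34583531-34588731, plus strand, GENCODE M21) was at 0.42 TPM in Sham, 30.9 TPM in Cas+CO and 2.58 TPM in Cas+T. Its ratio of 4.49 in Cas+CO over Sham was the largest of the members, and Cas+T over Cas+CO was -3.16. Ifit3b (chr19:34607970-34613401, plus strand), its near copy, was at 0.47, 12.5 and 0.97 TPM. Of all 75-base stretches of their transcripts, 41.1% of Ifit3 and 35.7% of Ifit3b are shared between them, so how reads were split between the pair is uncertain. The sum of the pair was 0.89, 43.4 and 3.55 TPM, with ratios of 4.55 and -3.29. Ifit1 was at 0.50, 7.80 and 1.92 TPM, with ratios of 2.55 and -1.59. Ifit2 was at 0.70, 3.67 and 0.93 TPM, with ratios of 1.46 and -1.27. For all 4, Cas+T lay between Sham and Cas+CO.

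The oligoadenylate synthetases make the messenger that switches on RNase L, and most of them were low. Oas1a was at 1.0 TPM in Sham, 4.75 TPM in Cas+CO and 1.92 TPM in Cas+T. It shares 47.6% of its 75-base stretches with Oas1g, and the sum of the pair was 1.5, 5.89 and 3.0 TPM. Oas2 was at 0.20, 1.60 and 0.12 TPM. Oas3 was at 0.08, 0.54 and 0.15 TPM, too low to be compared. Among the synthetase-like genes, Oasl1 was listed at 0 in Sham, reached 1.11 TPM in Cas+CO and stood at 0.29 TPM in Cas+T. Oasl2 stood apart from the family, at 1.15, 39.2 and 4.48 TPM, with ratios of 4.22 and -2.87. Its Cas+T value was 1.35 above Sham on the log2 scale, the largest such ratio among the members compared.

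The ubiquitin-like modifier Isg15 (chr4:156199424-156200818, minus strand) was at 6.47 TPM in Sham, 29.8 TPM in Cas+CO and 10.8 TPM in Cas+T, with ratios of 2.04 and -1.38. Usp18, the protease that removes it from proteins and also dampens interferon receptor signalling, was at 1.26, 5.89 and 2.08 TPM, with ratios of 1.61 and -1.16. The 4 genes of the conjugation pathway outside the set differed in the same direction. All 4 were at least 2-fold higher in Cas+CO over Sham, where 37.6% of all genes were. After median scaling 2 of them were, where 13.0% of genes were. Uba7, the activating enzyme, was at 4.84, 38.5 and 10.4 TPM, and Ube2l6, the conjugating enzyme, at 5.68, 25.9 and 6.84 TPM. In Cas+T over Cas+CO, 2 of the 4 were at least 2-fold lower, where 23.4% of genes were.

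The IFITM proteins sit in membranes and block virus entry, and the 3 genes lie close together on chromosome 7 with unlike patterns. Ifitm1 (chr7:140967221-140969825, plus strand) was at 0.53 TPM in Sham, 28.1 TPM in Cas+CO and 2.87 TPM in Cas+T, with ratios of 4.25 and -2.91. Ifitm2 was already abundant in Sham, at 80.2 TPM, against 175 TPM in Cas+CO and 45.4 TPM in Cas+T. Ifitm3 was at 48.9, 128 and 28.4 TPM. Ifitm2 and Ifitm3 were thus lowest in Cas+T, with Cas+T over Sham at -0.81 and -0.76, while Ifitm1 was above Sham at 1.34. Ifitm2 shares 42.0% of its 75-base stretches with other transcripts, chiefly those of Gm45717, an overlapping protein-coding gene without a value here. How such reads were assigned is not known, so the Ifitm2 value is uncertain.

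Among the interferon-induced GTPases, the guanylate-binding proteins coat microbial vacuoles, and their family median in Cas+CO over Sham was 2.96. Gbp2 (chr3:142620602-142638008, plus strand) was at 1.13 TPM in Sham, 33.2 TPM in Cas+CO and 2.23 TPM in Cas+T. Its ratios were 4.0 and -3.40, the latter the lowest of the members. Gbp3 was at 0.58, 11.3 and 1.99 TPM, with ratios of 2.96 and -2.04. Gbp7 was at 1.11, 13.9 and 1.85 TPM, with ratios of 2.82 and -2.39, and shares 11.3% of its 75-base stretches with other genes. All 3 were past 2-fold also after median scaling, in both comparisons with Cas+CO. The immunity-related GTPases, which act on vacuoles holding parasites and bacteria, were less uniform. Ifi47 was at 1.02, 22.5 and 2.55 TPM, with ratios of 3.54 and -2.73. Irgm1, a regulator of the family, was at 17.2, 51.3 and 21.3 TPM, with ratios of 1.52 and -1.23. Igtp was at 8.16, 19.1 and 8.64 TPM, with Sham and Cas+T almost level (0.07), and it shares 7.80% of its 75-base stretches with Irgm2. Of these 3, Ifi47 alone stayed past 2-fold after median scaling. The dynamin-like Mx proteins trap viral nucleoproteins. Mx1 was at 0.13, 0.98 and 0.13 TPM and was not compared, and Mx2 was at 1.12, 3.78 and 1.86 TPM, with ratios of 1.17 and -0.74.

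The remaining effectors held both a second tier of large ratios and the exception. Rsad2 (viperin, which makes a chain-terminating nucleotide) was at 0.21 TPM in Sham, 3.40 TPM in Cas+CO and 0.34 TPM in Cas+T. Ifi44 was at 0.14, 8.65 and 1.54 TPM, with ratios of 3.08 and -1.93. Parp14, an ADP-ribosyltransferase, was at 1.02, 15.3 and 2.79 TPM, with ratios of 3.01 and -2.10. These 3 genes stood at about 1 TPM or less in Sham. Rtp4, a receptor chaperone, was at 1.77, 18.9 and 3.91 TPM, with ratios of 2.84 and -2.02, and shares 10.5% of its 75-base stretches with another gene. Ifi27 was at 5.91, 45.8 and 8.33 TPM, with ratios of 2.76 and -2.33. Xaf1, a partner of the apoptosis inhibitor XIAP, was at 2.44, 20.4 and 3.51 TPM, with ratios of 2.64 and -2.24. These too lay closer to Sham than to Cas+CO in Cas+T. Bst2 (tetherin, which holds budding virus to the cell) was at 18.1, 33.3 and 13.6 TPM. Ifi35 was at 19.5, 34.9 and 26.9 TPM, and an antisense gene overlaps 16.8% of its exonic bases, which matters because use of strand is not stated.

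Isg20, an RNA exonuclease with antiviral activity (chr7:78913424-78920396, plus strand), ran the other way. It was at 576 TPM in Sham, 18.8 TPM in Cas+CO and 378 TPM in Cas+T. Sham and Cas+T were high and Cas+CO was low, with ratios of -4.87 in Cas+CO over Sham, 4.26 in Cas+T over Cas+CO and -0.61 in Cas+T over Sham. Its ratio in Cas+CO over Sham was the 94th lowest of 16181 genes, and after median scaling it was -5.61. In Sham it was the most abundant of the 41 members, followed by Ifitm2 at 80.2 TPM. Of its 3 promoters, 1 held TTC-NNN-GAA, from -73 to -65, and none held GAAA-NN-GAAA.

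The ratios of members with and without the response element core overlapped. The 19 with it included 18 that were compared, of which 16 were at least 2-fold higher in Cas+CO over Sham and 0 lower, with a median of 1.69. The 13 without it included 10 higher and 1 lower, with a median of 2.02. Among all genes compared, 37.6% were higher and 6.48% were lower. The largest ratios without it were those of Ifitm1, at 4.25, and Oasl2, at 4.22.

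The rest of the pathway was read from lists of other interferon genes. None of 21 interferon ligands has a value in the files used here, so the ligands are not analysed here. Of the receptors and their nearest signalling partners, 6 of 11 compared were at least 2-fold higher in Cas+CO over Sham and 0 lower, with a median of 1.09, where 37.6% of all genes were higher. After median scaling 1 of the 11 was higher, where 13.0% of genes were, so this list was not set apart from the background. Ifnar1 was at 16.5 TPM in Sham, 44.2 TPM in Cas+CO and 22.1 TPM in Cas+T, and Ifnar2 at 30.0, 69.7 and 35.4 TPM. Ifngr1 and Ifngr2, the interferon-gamma receptor, were at 41.8, 77.2 and 47.7 TPM and at 29.7, 32.7 and 37.6 TPM. The receptor chains were thus present in all 3 libraries, and Ifngr2 differed little. Ifnlr1, of the interferon-lambda receptor, was at 2.02, 7.66 and 3.15 TPM.

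Upstream nucleic acid sensing genes outside the set were higher in 8 of 15 compared (53.3%), where 37.6% of all genes were, and in 5 after median scaling, where 13.0% were. Of these 15, 9 reached 1 TPM in Sham, and the rest, compared only through Cas+CO, had to be higher there. Among the 9, only Tmem173 and Irf3 were at least 2-fold higher, where 33.5% of genes at 1 TPM or more in both libraries were. After median scaling only Tmem173 was, where 1196 of 13004 such genes were. The 9 were thus not set apart from the background. Tmem173 (STING), the adaptor of the DNA sensing pathway, was at 4.11 TPM in Sham, 21.7 TPM in Cas+CO and 4.43 TPM in Cas+T, and Irf3, the factor it activates, at 30.4, 94.8 and 46.4 TPM. Of 40 other interferon-induced effectors compared, 30 were higher and 0 lower, 14 and 0 after median scaling, with a median of 1.56. Of these 40, 22 reached 1 TPM in Sham, and the rest had to be higher in Cas+CO. Ifi27l2a, a relative of Ifi27, was at 1.46, 75.03 and 4.84 TPM. In Cas+T over Cas+CO, 25 of the 40 were lower and 0 higher, where 23.4% and 6.9% of all genes were. Of the 40, 30 reached 1 TPM in Cas+T. Of 25 genes tied to interferon-gamma, 21 were higher and 1 lower, 11 and 1 after median scaling, with a median of 1.58. Only 11 of these 25 reached 1 TPM in Sham, and the rest likewise had to be higher in Cas+CO. Iigp1, an immunity-related GTPase, was at 0.58, 20.8 and 1.12 TPM, and Psmb8, an immunoproteasome subunit, at 13.6, 64.0 and 15.0 TPM. The lower gene was Ido1, which breaks down tryptophan, at 255 TPM in Sham, 2.55 TPM in Cas+CO and 265 TPM in Cas+T. Its pattern resembles that of Isg20, and its ratio of -6.17 was the 61st lowest of the genes compared. In Cas+T over Sham, 1 of 4 conjugation genes compared and 3 of 30 other effectors were at least 2-fold higher. Among all genes 5.2% were higher and 2.75% lower, and none of these lists had a lower gene.

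**Figure D4:**
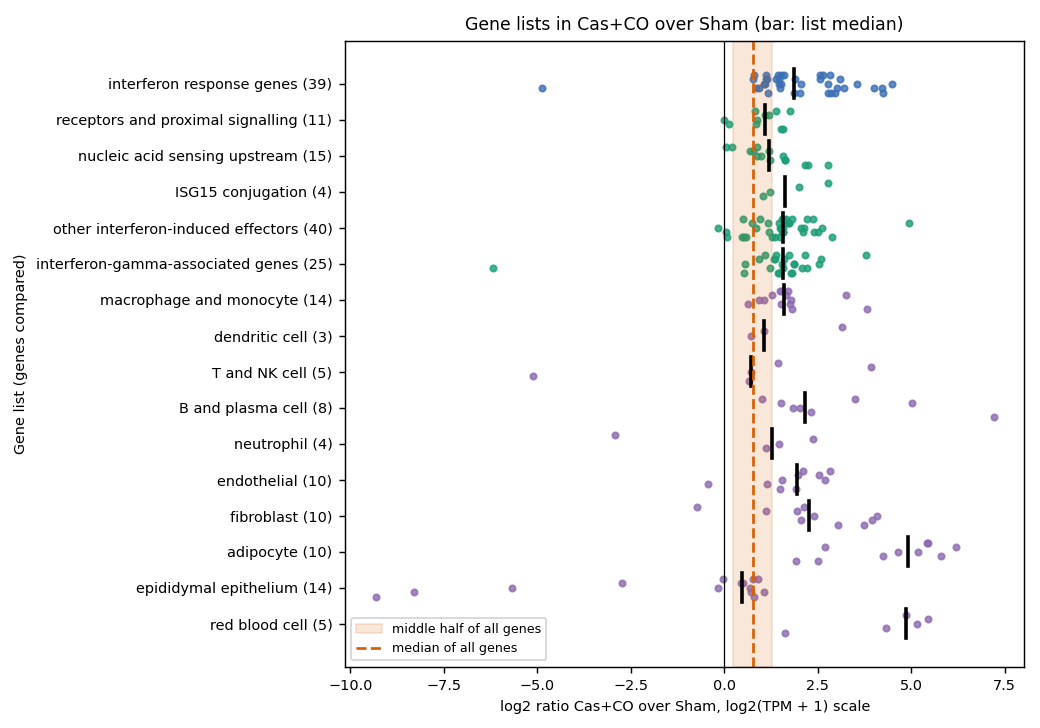
Log2 ratios in Cas+CO over Sham of the members, the other interferon pathway lists and the cell type marker lists, 1 point for each gene compared, with a bar at the median of each list, a dashed line at the median of all genes and shading over their interquartile range. The list medians are 1.86 for the members, 1.09 for receptors and signalling, 1.56 for other effectors and 1.58 for the interferon-gamma genes, against 0.76 for all genes.

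Markers of several cell types moved with the members. The counts of markers are to be read against the 37.6% of all genes that were higher in Cas+CO over Sham and the 6.48% that were lower. After median scaling these shares were 13.0% and 11.7%. Markers compared only through Cas+CO had to be higher there. In Sham, 13 of the 14 macrophage and monocyte markers compared reached 1 TPM, and 2 of the 8 for B and plasma cells. For T and NK cells, dendritic cells and neutrophils it was 2 of 5, 1 of 3 and 1 of 4. In whole tissue, fewer cells of a type and less RNA per cell cannot be told apart. Of the macrophage and monocyte markers, 12 of 14 compared were at least 2-fold higher in Cas+CO over Sham, and the 16 listed summed to 104 TPM in Sham, 760 TPM in Cas+CO and 160 TPM in Cas+T, none at 0. Lyz2 was the most abundant of them in each library, at 34.1, 496 and 84.5 TPM. After median scaling 4 of the 14 were higher. The B and plasma cell list was higher in 8 of 8 and summed to 6.61, 430 and 12.6 TPM, with Cd79b among those at 0 in Sham. Of the T and NK cell markers 2 of 5 were higher, near the share of all genes, and 1 was lower. Their median was 0.72 against 0.76 for all genes. They summed to 86.0, 29.6 and 9.34 TPM, but Klrb1c alone was 81.8 TPM in Sham. Trac was at 0.13, 16.1 and 0.55 TPM, Lck at 2.39, 4.6 and 3.72 TPM and Cd3g at 0, 1.68 and 0.14 TPM. Trac and Cd3g were compared only through Cas+CO. Cd3d, Cd3g and Cd8b1 were at 0 in Sham, and Cd3d, Cd8b1 and Nkg7 in Cas+T. Dendritic cell markers were higher in 2 of 3 and summed to 3.09, 21.7 and 2.52 TPM, with Ccr7 at 0 in Sham and Batf3 and Clec9a at 0 in Cas+T. Neutrophil markers were higher in 3 of 4 and lower in 1 and summed to 33.4, 13.5 and 47.4 TPM, of which S100a8 was 32.7, 3.46 and 44.3 TPM. Ly6g was at 0 in Cas+CO, and Camp, Cxcr2, Mpo and Ngp were at 0 in Sham and in Cas+T.

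Marker lists of other stromal and blood cells were also highest in Cas+CO. Endothelial markers were higher in 9 of 10 and summed to 36.5, 102 and 33.3 TPM, but only 4 of the 10 reached 1 TPM in Sham. Fibroblast markers were higher in 9 of 10 and summed to 114, 1362 and 130 TPM. Adipocyte markers were higher in 10 of 10 and summed to 48.2, 2293 and 128 TPM, with 6 of the 10 at 1 TPM or more in Sham. Red blood cell genes were higher in 5 of 5 and summed to 82.9, 2731 and 45.2 TPM, with Hba-a2 at 0 in Cas+T. Of the epithelial markers, 1 of 14 was higher and 4 were lower. After median scaling, higher counts were 7 of 8 for B and plasma cells and 1 of 5 for T and NK cells. They were 1 of 3 for dendritic cells, 2 of 4 for neutrophils and 6 of 10 for endothelium. For fibroblasts 8 of 10 were higher, for adipocytes 10 of 10, for red blood cells 4 of 5 and for epithelium 0 of 14. Lower counts were 4 for epithelium, 1 each for T and NK cells, neutrophils, endothelium and fibroblasts, and 0 for the rest. The part of these cell types in the member ratios was not tested.

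**Figure D5:**
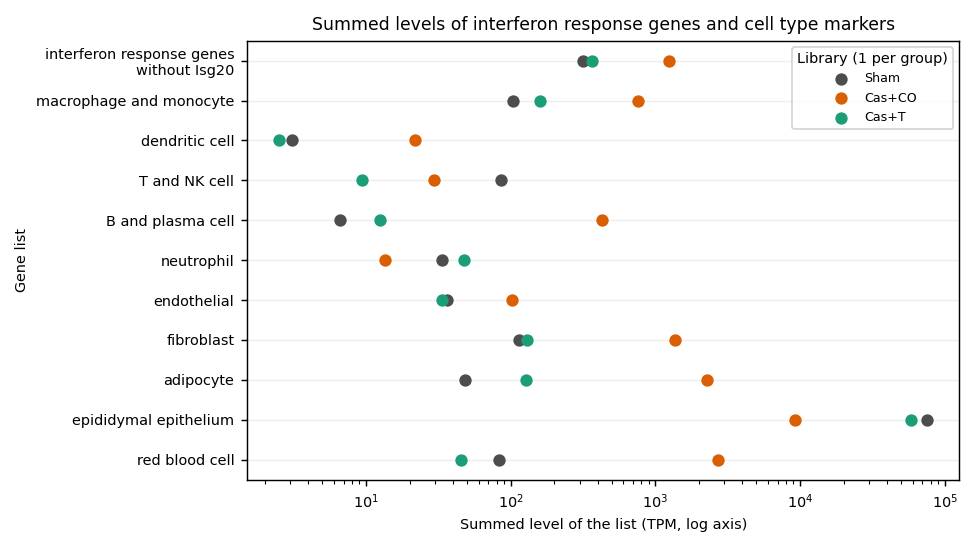
Summed TPM of the members without Isg20 and of each cell type marker list in Sham (grey), Cas+CO (orange) and Cas+T (green), on a log axis, 1 point a library. The members without Isg20 and the macrophage, dendritic, B cell, endothelial, fibroblast, adipocyte and red blood cell lists are highest in Cas+CO, and the epithelial list stands at 75504 TPM in Sham against 9289 TPM in Cas+CO. Of these epithelial sums Crisp1 alone is 44116 and 6654 TPM.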

How the data were processed

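RNA-seq of epididymis was measured in 3 libraries, 1 for each of Sham, Cas+CO and Cas+T. RNA was column-extracted and libraries followed standard Illumina protocols, per the labels' protocols. The aligner and counter, the build and the read length were not given in the sources used here. Deposited values, 1 per gene, are on a log2 scale whose unit no header names. Because 2 to the value, minus 1, stepped by 0.01 (within 0.001) and summed to 1000000 in each library, the deposited log2 values were read as log2(TPM + 1). TPM keeps no depth, so precision is unknown, and a 0 may be a failed estimate.

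Of 23538 rows, 937 without a symbol were named by identifier where possible; rows that shared 1 of 15 symbols were added together, leaving 23523 genes. A symbol that the files give to different genes was replaced by that of GENCODE M21 (GRCm38), which also gave coordinates. Ratios used a pseudocount of 1 TPM, a minimum of 1 TPM in either library and a 2-fold limit. Median scaling multiplied libraries so that the median level of 12677 genes, those at 1 TPM or more in all 3, was the same. It did not set the median ratio to 0. Over all genes compared that median was then 0.07 in Cas+CO over Sham, -0.06 in Cas+T over Cas+CO and -0.01 in Cas+T over Sham. No test was run. Python 3.11.15, NumPy 2.4.6, pandas 2.3.3 and matplotlib 3.10.9 were used, and the code was tested on simulated data.

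The members and lists were chosen with earlier results of these data known. The naming rule took every member; the up to 4 genes per pathway list with the largest ratios in Cas+CO over Sham among those reaching 10 TPM, plus the receptors; and, per marker list, the 3 highest in Cas+CO and those at 0, from which the text takes some; a few genes that this rule gives are not reported here. Klrb1c was named after its values were seen. Shared 75-base stretches were counted among GENCODE M21 transcripts. The promoter sequences are from RefSeq (GRCm38.p6). The alternatives were another pseudocount, other minimums, 2 other scalings, a limit of 4-fold, only the highest row of a symbol, totals without marker genes and, chosen after seeing the data, leaving out genes listed at 0.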

Additional observations from a re-analysis of the deposited data

How the results depend on the processing

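With 1 library per group, no replicate could be left out and nothing here measures variation between mice. No paired analysis was possible because each group has a single library. In the medians of the members relative to all genes, the order below is Cas+CO over Sham, Cas+T over Cas+CO and Cas+T over Sham, and the reported values are 1.10, -1.13 and 0.25. They were 1.37, -1.43 and 0.40 with a pseudocount of 0.1 TPM, 1.17, -1.25 and 0.28 with no minimum, and 1.31, -1.52 and 0.13 with a minimum of 10 TPM. They were 1.04, -1.07 and 0.34 after median scaling, and 1.09, -1.10 and 0.30 after scaling by totals that left out the 50 most abundant genes. Leaving out genes listed at 0, an alternative chosen after seeing the data, gave 1.11 and -1.14 in the first and second. The count of members higher in Cas+CO over Sham went from 34 to 20 after median scaling and to 18 at a 4-fold limit, and the count lower in Cas+T over Cas+CO from 30 to 14 at 4-fold. For Cas+T over Sham, the 4 higher members became 9 with the smaller pseudocount, 0 with a minimum of 10 TPM and 0 at 4-fold, and the 0 lower members became 2 after median scaling. The cause of these shifts was not tested, apart from the stricter limits, which leave fewer genes by construction. No member past 2-fold changed sign under any alternative; among those within 2-fold, 5 ratios changed sign after median scaling and 1 after scaling without the 50 most abundant genes. The highest row per symbol gave the same counts. Totals without marker genes did too, as they had to: they shift a library by at most 0.00856 on the log2 scale, so they do not bear on the part of other cell types. The depth is unknown, which limits low members such as Oas2 and Oasl1.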

Other observations

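Genes beside the exceptions were looked at after their values were seen. Aen, an exonuclease gene next to Isg20 on chromosome 7, was at 39.4 TPM in Sham, 13.0 TPM in Cas+CO and 37.2 TPM in Cas+T, with a ratio of -1.53 in Cas+CO over Sham. The next genes on that side, Det1 at 8.09, 11.8 and 7.76 TPM and Mrps11 at 23.95, 24.04 and 28.96 TPM, differed less. Ido2, the neighbour and relative of Ido1, was at 5.63, 0.06 and 11.0 TPM, with a ratio of -2.64, while Tcim, the next gene, was at 12.1, 9.66 and 11.4 TPM. Gm44815, Acan and Hapln3, on the other side of Isg20, were under 1 TPM in every library and were not compared. The same holds for Adam18, Adam3 and Adam5, on the other side of Ido1. On the side with values, Isg20 and Ido1 thus each had an adjacent gene that was at least 2-fold lower in Cas+CO over Sham. Among all genes compared 6.48% were. Whether neighbours are linked was not tested.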
